A study of Mus musculus with 31 samples.

Results

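NMDA receptors are glutamate-gated ion channels of excitatory synapses that pass calcium when glutamate binds while the membrane is depolarised, and they start several forms of synaptic plasticity in the hippocampus. Each channel holds the obligatory subunit encoded by Grin1, which binds glycine or D-serine, together with subunits of the Grin2 genes, which bind glutamate and set the kinetics of the channel, or of the Grin3 genes, which bind glycine and lower calcium flux. In the rodent forebrain Grin2b is known as the Grin2 subunit of early life, Grin2a as one that is added during postnatal development, Grin2c as a subunit most abundant in the cerebellum, Grin2d as one of interneurons and of early life, and Grin3a as one that is high in the first postnatal weeks.

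The members described here are the probesets of a mouse Affymetrix GeneChip whose annotation names Grin1, Grin2a, Grin2b, Grin2c, Grin2d or Grin3a. Of these 6 genes, 5 have a listed probeset, with 11 probesets among 45037 on the array, and Grin1 is not analysed here because no probeset is listed for it alone. Only probesets brighter than the array's median signal on 3 or more arrays were tested, and these were 10 of the 11 members and 26877 of all probesets. Total RNA of the hippocampus came from 31 male C57BL/6 mice, with 1 mouse for each array. Tg mice carried extra copies of Glud1, the gene of the mitochondrial enzyme glutamate dehydrogenase, and overexpressed it in neurons of the central nervous system. They were compared with wt mice of the same background at 10 days and at 4.5, 9, 14.5 and 20 months, with 3 mice for each genotype and age except for 4 wt mice at 10 days. Nothing in the sources used here says whether mice of a group were littermates, and the p values measure the spread between mice.

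Values below are log2 of the deposited signals after quantile normalization, and a difference of 1 between them is a doubling of signal. A probeset was called at an adjusted p under 0.05 in limma, a linear model fitted over all probesets tested with Benjamini-Hochberg adjustment. Levels of different probesets are not compared with each other, since probesets differ in how strongly they respond. Array medians ran from 91.4 to 140 signal units and arrays of a group correlated at 0.934 or more. Both Glud1 probesets read an untranslated part missing from the transgene and cannot serve as a check of genotype. Over the mean of 5 ages they differed between Tg and wt by -0.01 and -0.03 on the log2 scale, with adjusted p = 0.950 and 0.809. The 3' to 5' ratio of the Gapdh control probesets, a measure of RNA integrity, was -0.08 to 0.02 (log2) at 4.5 months, above the range at every other age. The same ratio for actin was 0.71 to 0.96 at 9 months, also above every other age. In whole tissue, fewer cells of a type and less RNA per cell cannot be told apart. Markers of dentate granule cells (Prox1, C1ql2) and of pyramidal cells (Wfs1, Fibcd1) exceeded the array median on all 31 arrays. Of 6 cerebellar markers Gabra6, Pcp2, Cbln3 and Barhl2 did so on 1, 2, 0 and 0 arrays, Eomes on 14 and Cbln1 on 31. Of 6 thalamic markers Rora, Prkcd and Plekhg1 did so on 31 arrays, Lef1 on 26, Tcf7l2 on 20 and Tnnt1 on 4. The summed level of a list, here and below, is the log2 of its summed linear signals, so the brightest genes weigh most. For 6 choroid plexus markers, of which Ttr was the brightest, it varied widely within groups. It was 10.49 to 15.07 in Tg mice of 10 days and 9.52 to 15.26 in wt mice of 4.5 months. Its part in the results was not tested.

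Upstream sequences are shown for Grin2c and Grin2d, because both genes changed with age and RefSeq promoter entries were at hand for them. Among the 6 genes 3 had such an entry, the remaining one being Grin1. Each line gives the 250 bases before the annotated transcript start in the build GRCm38.p6, 5′ to 3′ on the minus strand, at chr11:115267244-115267493 for Grin2c and at chr7:45866682-45866931 for Grin2d. Capitals mark the GC box GGGCGG, searched on both strands, which is bound by zinc finger factors of the Sp family.
Grin2c: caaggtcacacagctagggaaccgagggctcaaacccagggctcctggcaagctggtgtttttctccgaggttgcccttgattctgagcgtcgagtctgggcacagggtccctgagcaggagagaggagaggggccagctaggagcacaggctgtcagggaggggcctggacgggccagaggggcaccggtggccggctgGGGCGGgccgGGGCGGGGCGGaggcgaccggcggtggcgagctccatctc
Grin2d: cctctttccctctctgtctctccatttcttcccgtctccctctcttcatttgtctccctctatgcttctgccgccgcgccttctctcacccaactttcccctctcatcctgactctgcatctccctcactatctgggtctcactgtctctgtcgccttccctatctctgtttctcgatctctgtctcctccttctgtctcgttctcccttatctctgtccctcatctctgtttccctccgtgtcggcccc
The Grin2c window held 3 copies of the motif, the last of which shares a base with the one before it, and the Grin2d window held 0. Of 32851 mouse promoter windows of the same length, 32.7% held the motif and 8.47% held 3 or more copies. The share of G and C was 68.8% for Grin2c and 54.4% for Grin2d, against a median of 52.4% over all windows.

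The first comparison was that of young adults with 10-day-old mice, which covers postnatal development. The arrays of these ages also differed in their Gapdh ratio (-0.08 to 0.02 at 4.5 months, -0.43 to -0.19 at 10 days). The part of this difference in the changes was not tested and cannot be told apart from that of age. At 4.5 months Grin2a and Grin2c were 3.40-fold and 3.56-fold higher than at 10 days. Grin2d was 1.51-fold higher on the brighter of its probesets only, Grin3a was lower on all 3 of its probesets, and the Grin2b probesets disagreed. In all, 7 of 10 tested probesets passed the test, 4 of them higher and 3 lower. Over all probesets tested 63.5% passed, 32.2% higher and 31.3% lower, so the share of members is close to the background. The same 7 passed in the Tg mice alone, where the background was 48.4%, and in the wt mice alone, where it was 53.3%.

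Grin2a is read by a single probeset, 1421616_at, designed on its RefSeq mRNA. At 4.5 months its log2 signal was 8.78, 8.80 and 8.80 in the Tg mice, against 8.65, 8.51 and 8.38 in the wt mice. At 10 days it was 6.73, 6.72 and 6.71 in the Tg mice, against 6.87, 7.51, 7.15 and 6.68 in the wt mice. Every 4.5-month mouse lay above every 10-day mouse. The change was 1.77 ± 0.21 (log2 fold change ± SE, adjusted p = 1.49e-08), with 2.07 ± 0.30 in Tg and 1.46 ± 0.28 in wt mice. The difference between these changes, 0.61 ± 0.42, did not pass the test (adjusted p = 0.803).

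Grin2b is read by 4 probesets, which did not move together. The brightest, 1457003_at, which was designed on an expressed sequence tag, had 11.40, 11.23 and 11.40 in Tg and 11.36, 11.38 and 11.34 in wt mice at 4.5 months. At 10 days it had 10.32, 10.55 and 9.95 in Tg and 10.40, 10.60, 10.36 and 10.16 in wt mice. The ages did not overlap and the change was 1.02 ± 0.09, a 2.03-fold increase (adjusted p = 4.32e-11). The probeset designed on the RefSeq mRNA, 1422223_at, changed by 0.13 ± 0.16 (adjusted p = 0.487) and the second tag probeset, 1442370_at, by -0.13 ± 0.14 (adjusted p = 0.444), which became -0.30 (adjusted p = 0.0151) without the Tg mouse 1 of 10 days. The last of them, 1431700_at, exceeded the array median on 1 array and was not tested. Over 31 arrays the correlation of 1457003_at was 0.40 with 1422223_at and 0.28 with 1442370_at, as a description across mice that share age groups. With the median over the tested probesets of the gene in place of the brightest, the change of Grin2b was 0.15 (adjusted p = 0.217).

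Grin2c, with the single probeset 1449245_at, had 8.74, 8.66 and 8.88 in Tg and 8.64, 9.01 and 8.57 in wt mice at 4.5 months. At 10 days it had 7.31, 7.55 and 6.71 in Tg mice, against 7.15, 7.29, 4.44 and 7.69 in wt mice, all below every 4.5-month mouse and with 1 wt mouse far below the rest. The change was 1.83 ± 0.31 (adjusted p = 1.63e-05).

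Grin2d is read by 2 probesets. On 1442328_at it had 9.01, 9.15 and 9.11 in Tg and 9.21, 9.29 and 9.37 in wt mice at 4.5 months. At 10 days it had 8.55, 8.68 and 8.81 in Tg and 8.31, 8.70, 8.51 and 8.53 in wt mice, with no overlap between the ages. The change of 0.60 ± 0.11 passed the test (adjusted p = 3.92e-05). The RefSeq probeset 1421393_at was dim, above the array median on 4 arrays, and changed by 0.25 ± 0.54 (adjusted p = 0.704). With the median of both, the change of Grin2d was 0.42 (adjusted p = 0.187).

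Grin3a went the other way on each of its probesets. On 1438866_at it had 9.12, 9.12 and 9.28 in Tg and 9.15, 9.04 and 9.65 in wt mice at 4.5 months. At 10 days it had 9.97, 10.22 and 10.38 in Tg and 9.83, 10.25, 9.78 and 10.12 in wt mice, all above the 4.5-month mice. The change was -0.87 ± 0.12 (adjusted p = 2.68e-07). The other probesets fell by 1.49 ± 0.15 (1436575_at, adjusted p = 4.42e-10) and by 0.70 ± 0.16 (1458378_at, adjusted p = 0.000252). The 3 Grin3a probesets correlated with each other at 0.79 to 0.90 over 31 arrays.

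**Figure D1:**
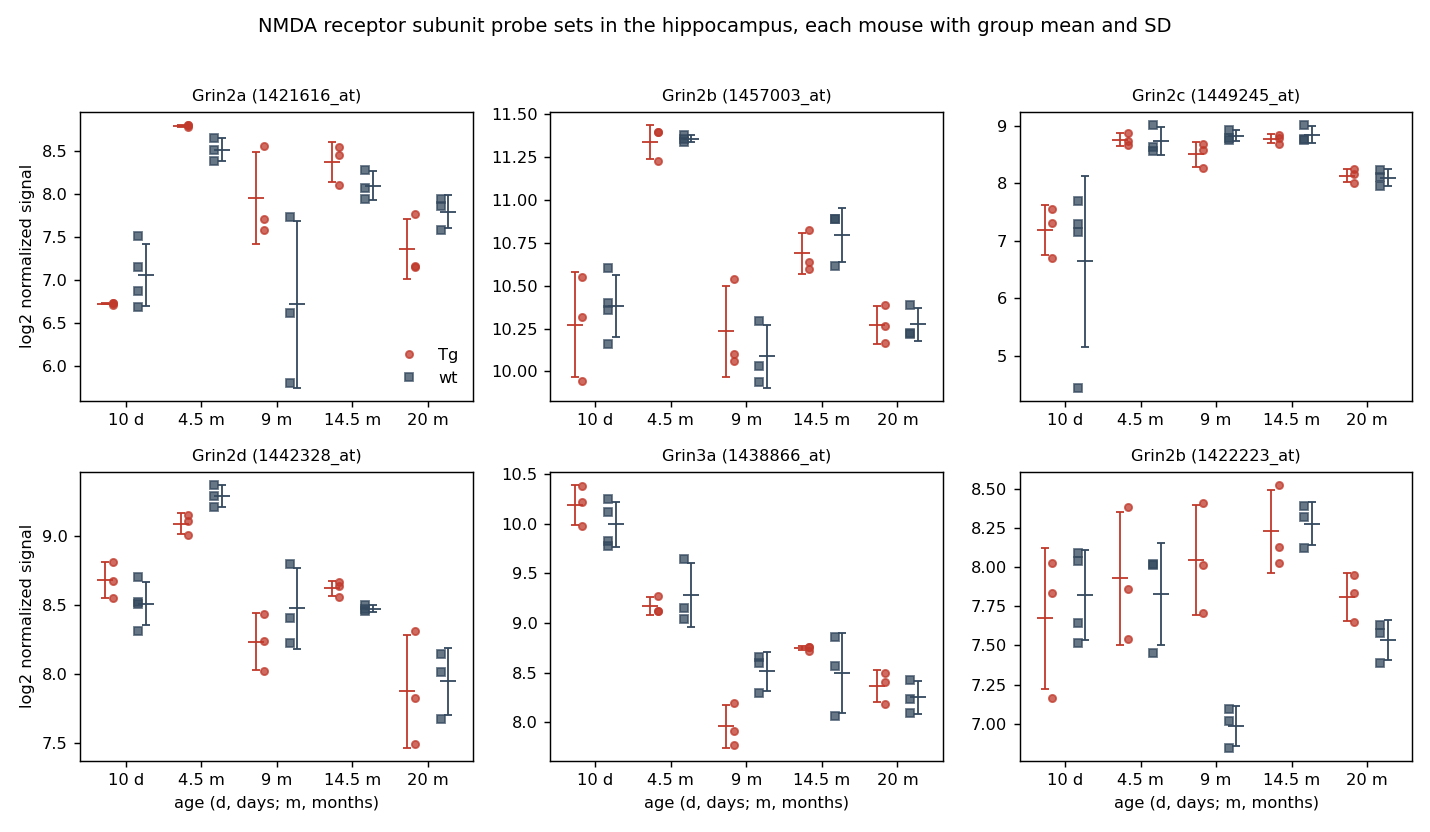
Log2 normalized signal (y axis) of 5 subunit genes and a second Grin2b probeset in each mouse, by age (x axis), with Tg mice as circles on the left and wt mice as squares on the right of each age; bars give the group mean and SD. Grin2a, Grin2b (1457003_at) and Grin2d stood highest at 4.5 months, Grin3a at 10 days, and Grin2b 1422223_at was lowest in the wt mice of 9 months.

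The age chosen for adulthood decided part of these calls. At 9 months against 10 days 5 of 10 probesets passed, against a background of 66.2%. The differences were 0.44 ± 0.21 for Grin2a (adjusted p = 0.0606), -0.17 ± 0.09 for Grin2b 1457003_at (adjusted p = 0.107) and -0.24 ± 0.11 for Grin2d 1442328_at (adjusted p = 0.0620), none of which passed. Grin2b 1442370_at was lower, by -0.73 ± 0.14 (adjusted p = 5.62e-05), and was lower as well in the mean of the 4 later ages, by -0.38 ± 0.11 (adjusted p = 0.00309). Grin2c stayed called, at 1.75 ± 0.31 (adjusted p = 2.84e-05), and so did the 3 Grin3a probesets, at -1.44 to -1.94. At 20 months against 10 days, a pair of ages added after the values were seen, 7 of 10 probesets passed, against a background of 59.1%. Grin2a remained 1.61-fold and Grin2c 2.30-fold higher (adjusted p = 0.00550 and 0.00197), while Grin2d was lower on both probesets, by -0.68 ± 0.11 (1442328_at) and -1.38 ± 0.54 (1421393_at, adjusted p = 0.0299). The call of 1421393_at was lost without any of 5 mice (adjusted p = 0.0515 to 0.143), the Tg mice 1 and 3 and the wt mouse 3 of 10 days and the Tg mouse 3 and the wt mouse 2 of 20 months. Grin3a was 3.35-fold to 3.46-fold lower, and Grin2b 1457003_at had a difference of -0.05 ± 0.09 (adjusted p = 0.635).

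The next comparison was that of old with young adult mice. Their arrays differed in the Gapdh ratio as well (-0.46 to -0.43 at 20 months, -0.08 to 0.02 at 4.5 months), and its part cannot be told apart from that of age. At 20 months, 6 of 10 probesets were lower than at 4.5 months and 0 were higher, where 38.5% of all probesets passed, 18.1% lower and 20.4% higher. The count of members higher at an unadjusted p under 0.05 was 0 as well, against 6612 of all 26877 probesets. The genes that fell were Grin2a, Grin2d, Grin3a and, on 1 of 3 tested probesets, Grin2b. Over all ages, 7 of 10 probesets changed with age in Tg mice and 9 of 10 in wt mice by an F-test, close to backgrounds of 72.3% and 73.8%. In Tg mice that of Grin2c was lost without the Tg mouse 3 of 10 days (adjusted p = 0.111).

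Grin2a had 7.16, 7.15 and 7.76 in Tg mice at 20 months, against 7.86, 7.57 and 7.94 in wt mice, and all 6 lay below the 4.5-month mice. Its change was -1.08 ± 0.21, a 2.11-fold decrease (adjusted p = 0.000163). In Tg mice alone it was -1.44 ± 0.30 (adjusted p = 0.000689) and in wt mice alone -0.72 ± 0.30 (adjusted p = 0.0758). The difference between genotypes in this change, -0.72 ± 0.43, did not pass the test (adjusted p = 0.889).

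Grin2b 1457003_at had 10.17, 10.26 and 10.39 in Tg and 10.22, 10.22 and 10.39 in wt mice at 20 months, below every mouse of 4.5 months and within the range of the 10-day mice. It fell by 1.08 ± 0.09 (adjusted p = 1.38e-10). The other tested Grin2b probesets changed by -0.21 ± 0.16 and -0.14 ± 0.14 (adjusted p = 0.345 and 0.473).

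Grin2d 1442328_at had 8.31, 7.82 and 7.49 in Tg and 8.02, 7.67 and 8.15 in wt mice at 20 months. All 6 values lay below those of 4.5 months, and the change was -1.28 ± 0.12, a 2.43-fold decrease (adjusted p = 3.95e-10). The dim probeset 1421393_at fell by 1.63 ± 0.56 (adjusted p = 0.0213), where 1 mouse of each genotype stood far below the others, at 3.08 in Tg and 2.80 in wt. Its call was lost without the Tg mouse 3 of 20 months (adjusted p = 0.0924), the wt mouse 2 of 20 months (0.0961) or the Tg mouse 3 of 4.5 months (0.0578).

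Grin3a 1438866_at had 8.50, 8.41 and 8.19 in Tg and 8.43, 8.10 and 8.24 in wt mice at 20 months, with no overlap with 4.5 months. It fell by 0.92 ± 0.12 (adjusted p = 5.32e-07) and 1458378_at by 1.09 ± 0.16 (adjusted p = 2.55e-06), while 1436575_at changed by -0.25 ± 0.15 (adjusted p = 0.204). Grin2c had 8.01, 8.16 and 8.24 in Tg and 8.11, 7.95 and 8.23 in wt mice, all below its values of 4.5 months. Its change of -0.63 ± 0.32 did not pass the test (adjusted p = 0.130), but did so without the low wt mouse 3 of 10 days, which enters through the shared spread (adjusted p = 0.000155), with 50 added to each signal (0.0158) and in a fit of the compared ages alone (0.000146).

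**Figure D2:**
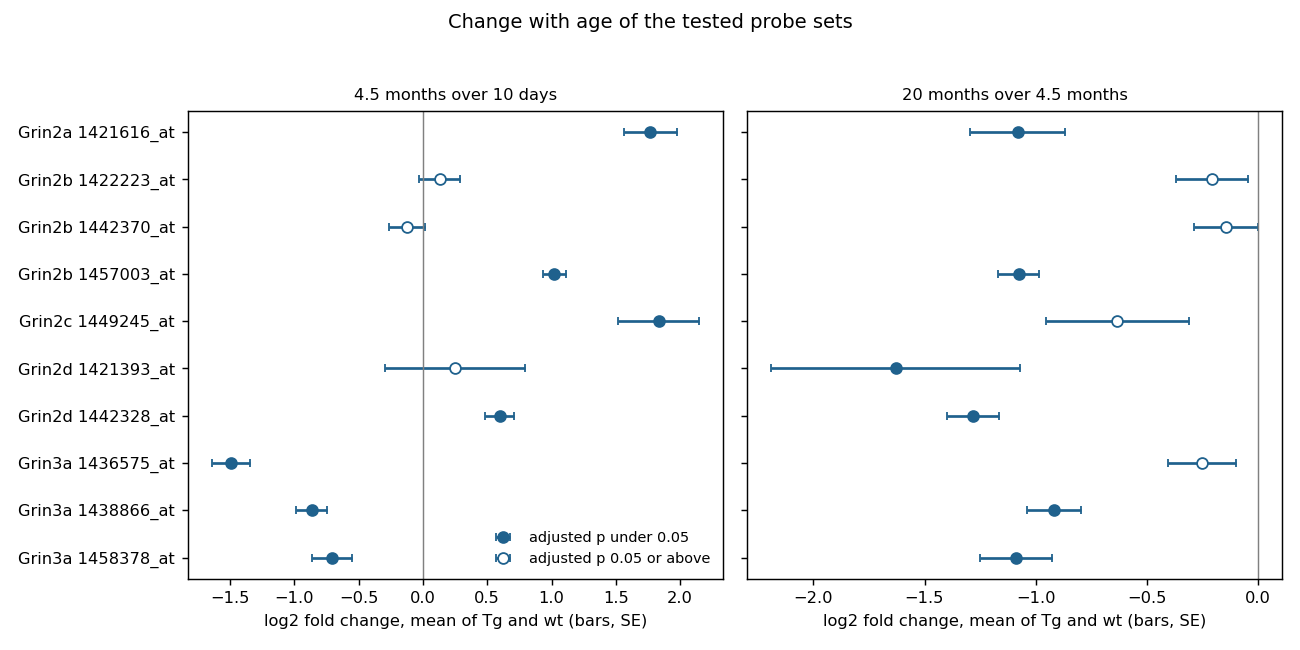
Log2 fold change (x axis, mean of Tg and wt, bars are SE) of each tested probeset (y axis) for 4.5 months over 10 days on the left and 20 over 4.5 months on the right; filled points passed an adjusted p under 0.05. The 3 Grin3a probesets lie below 0 on the left, where the other called probesets lie above it, and all 6 called probesets lie below 0 on the right.

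Between the adult ages the levels did not move in one direction. At 9 against 4.5 months 7 of 10 probesets were called, all lower, where 45.4% of all probesets were called and 23.9% were lower. At 14.5 against 9 months 5 were called, all higher (51.3% called, 28.2% higher). At 20 against 14.5 months 7 were called, all lower (33.3% called, 15.3% lower). Grin2a changed by -1.32 ± 0.21, 0.90 ± 0.21 and -0.66 ± 0.21 over these 3 steps, with adjusted p = 9.88e-06, 0.000891 and 0.0178. Grin2b 1457003_at moved in the same order, by -1.19, 0.58 and -0.47 (adjusted p = 2.49e-11, 7.01e-06 and 0.000223). These are also the ages at which the Gapdh and actin ratios stood apart, and their part in the steps was not tested.

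Ordered by their means, the ages of Grin2a ran 10 days, 9, 20, 14.5 and 4.5 months. Among the neighbours in that order, only 20 and 14.5 months differed past the test, since 9 months differed from 10 days by 0.44 (adjusted p = 0.0606), 20 from 9 months by 0.24 (0.383) and 14.5 from 4.5 months by -0.42 (0.131). In a fit of the compared ages alone, Grin2a at 14.5 against 4.5 months did pass (adjusted p = 0.00256). For Grin2b 1457003_at the order ran 9, 20 months, 10 days, 14.5 and 4.5 months. The neighbours 9 and 20 months (0.11, adjusted p = 0.350) and 20 months and 10 days (-0.05, 0.635) did not differ past the test. The neighbours 10 days and 14.5 months, with means of 10.33 and 10.74, were not tested against each other. Past the test, 14.5 months lay above 20 months, which is not its neighbour. Its neighbour 4.5 months lay above 14.5 months by 0.61 ± 0.09 (adjusted p = 9.27e-06). Grin2d 1442328_at was likewise lower at 14.5 than at 4.5 months, by -0.64 ± 0.12, and Grin3a 1438866_at by -0.60 ± 0.12. These were the 3 members of 10 that passed for that pair of ages, against a background of 34.5%. For Grin2c the 3 steps between successive ages from 4.5 to 20 months were -0.08 ± 0.32, 0.15 ± 0.32 and -0.69 ± 0.32 (adjusted p = 0.857, 0.728 and 0.103). The last of these passed without the wt mouse 3 of 10 days (adjusted p = 7.06e-05), with 50 added to each signal before log2 (0.00982) and in a fit of the compared ages alone (9.23e-06).

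The lowest values of Grin2a and of the 3 tested Grin2b probesets were all those of wt mice at 9 months. Grin2a had 7.71, 7.58 and 8.56 in Tg mice of that age, against 6.61, 5.80 and 7.73 in wt mice, so that the highest wt mouse lay within the Tg range. Grin2b 1422223_at had 7.71, 8.02 and 8.41 in Tg mice, against 7.09, 6.85 and 7.02 in wt mice, with no overlap. These were the only members that differed between genotypes at an age. Grin2a was 2.35-fold higher in Tg mice (1.24 ± 0.30, adjusted p = 0.0217) and Grin2b 1422223_at 2.08-fold higher (1.06 ± 0.23, adjusted p = 0.0102), against 3.48% of all probesets called at this age and 1.62% called higher.

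The calls rested on single mice. Without the Tg mouse 3 of 9 months neither remained (adjusted p = 0.136 for Grin2a and 0.0682 for Grin2b 1422223_at), and without the wt mouse 2 of 9 months Grin2a did not (0.142). A fit of the 9-month arrays alone called neither (adjusted p = 0.424 and 0.248). Without the wt mouse 3 of that age the F-tests of genotype over 5 ages and of its interaction with age passed for Grin2a (adjusted p = 0.0128 and 0.0151), and with all mice they did not (0.221 and 0.263).

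The other Grin2b probesets differed at 9 months by 0.58 ± 0.20 (1442370_at, adjusted p = 0.109), with Tg values of 10.26, 9.67 and 10.32 above wt values of 9.53, 9.38 and 9.58, and by 0.15 ± 0.13 (1457003_at, adjusted p = 0.585). The difference on 1442370_at passed without the Tg mouse 2 of 9 months (adjusted p = 0.0321) or the Tg mouse 1 of 10 days (0.0241). Grin3a was lower in Tg mice on each probeset, by -0.42, -0.55 and -0.61, with adjusted p = 0.282, 0.0710 and 0.127, none of which passed. On 1438866_at the Tg mice had 7.77, 8.20 and 7.91, all below the wt mice at 8.29, 8.59 and 8.66, and this difference passed without the Tg mouse 2 (adjusted p = 0.0407) or the wt mouse 1 of 9 months (0.0465). Without the wt mouse 3 of 9 months 1458378_at passed (adjusted p = 0.0198).

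At this age the groups did not overlap on 4 of 10 probesets, against 15.3% of all. The counts were 0 at 10 days (6.17%), 2 at 4.5 months (10.8%), 2 at 14.5 months (10.4%) and 1 at 20 months (11.8%). At 9 months the actin 3' to 5' ratio did not overlap either, at 0.71, 0.74 and 0.76 in Tg and 0.90, 0.96 and 0.77 in wt mice. The summed level of 8 neuron markers was 16.33 to 16.54 in Tg and 16.30 to 16.36 in wt mice (log2). They were Slc17a7, Slc17a6, Neurod6, Camk2a, Rbfox3, Snap25, Syt1 and Nrgn, not all of them specific to excitatory neurons. Snap25 and Syt1 were the brightest and weigh most in this sum. Of 6 markers of dentate granule cells 2 were higher in Tg mice of this age, Prox1 by 0.77 ± 0.22 and Dsp by 1.11 ± 0.30, and their summed level was 13.19 to 13.33 in Tg and 12.82 to 13.15 in wt mice. Of 10 interneuron markers 2 were lower, Gad2 and Reln by -0.45 ± 0.12 each, with a summed level of 14.78 to 14.89 in Tg and 14.92 to 15.05 in wt mice. Microglia markers, 0 of 8 of which passed, summed to 13.55 to 13.59 in Tg and 13.62 to 13.69 in wt mice. Of 12 cell type lists, the groups did not overlap on the sums of these 3. Of the 8 neuron markers 1 passed, Slc17a6, a glutamate transporter of synaptic vesicles, which was lower in Tg mice by -1.16 ± 0.31. The cerebellar marker Cbln1 was lower as well, by -1.04 ± 0.22. Among the 8 lists of related genes, the summed level of activity-regulated genes was 14.07 to 14.20 in Tg and 13.54 to 13.93 in wt mice, and that of calcium signalling genes 16.66 to 16.81 in Tg and 16.53 to 16.64 in wt mice. The sums of the other glutamate-gated channel subunits (14.87 to 14.92 in Tg, 14.82 to 14.84 in wt) and of trafficking genes (15.94 to 15.96 in Tg, 15.93 to 15.94 in wt) did not overlap either. The remaining related lists overlapped. So did the sum of the 5 NMDA receptor subunit genes, at 11.13 to 11.35 in Tg and 11.19 to 11.28 in wt mice. Some of these lists also separated at other ages, where no member was called. At 4.5 months interneuron markers summed to 14.85 to 14.96 in Tg and 15.07 to 15.08 in wt mice. Microglia markers were lower in Tg mice at 14.5 months but higher at 10 days (12.95 to 13.06 against 12.87 to 12.94). Activity-regulated genes at 20 months summed to 14.24 to 14.40 in Tg and 13.59 to 13.96 in wt mice. Trafficking genes were lower in Tg mice at 14.5 months. How often sums of other genes separate was not examined. The part of these ratios, markers and lists in the differences was not tested.

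At the other ages 0 of 10 members passed in limma, where the backgrounds were 0.0372% at 10 days, 0% at 4.5 and 14.5 months and 0.026% at 20 months. An unadjusted p under 0.05 was reached by 0 members. Of all 26877 probesets, 1914 reached it at 10 days, 1601 at 4.5, 263 at 14.5 and 1199 at 20 months. The largest of these differences were 0.54 ± 0.43 for Grin2c at 10 days (adjusted p = 0.894) and -0.44 ± 0.30 for Grin2a at 20 months (adjusted p = 1.00). For the brightest Grin2b probeset, 1457003_at, the difference lay between -0.11 and 0.15 at every age with SE of 0.12 or 0.13. The mean over 5 ages passed for 0 members (background 0.00744%), the F-test over 5 ages for 0 (0.16%) and the interaction of genotype and age for 0 (0.0484%). At an unadjusted p under 0.05 the members were 1, 3 and 3, against 2255, 2731 and 2448 of all 26877 probesets.

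**Figure D3:**
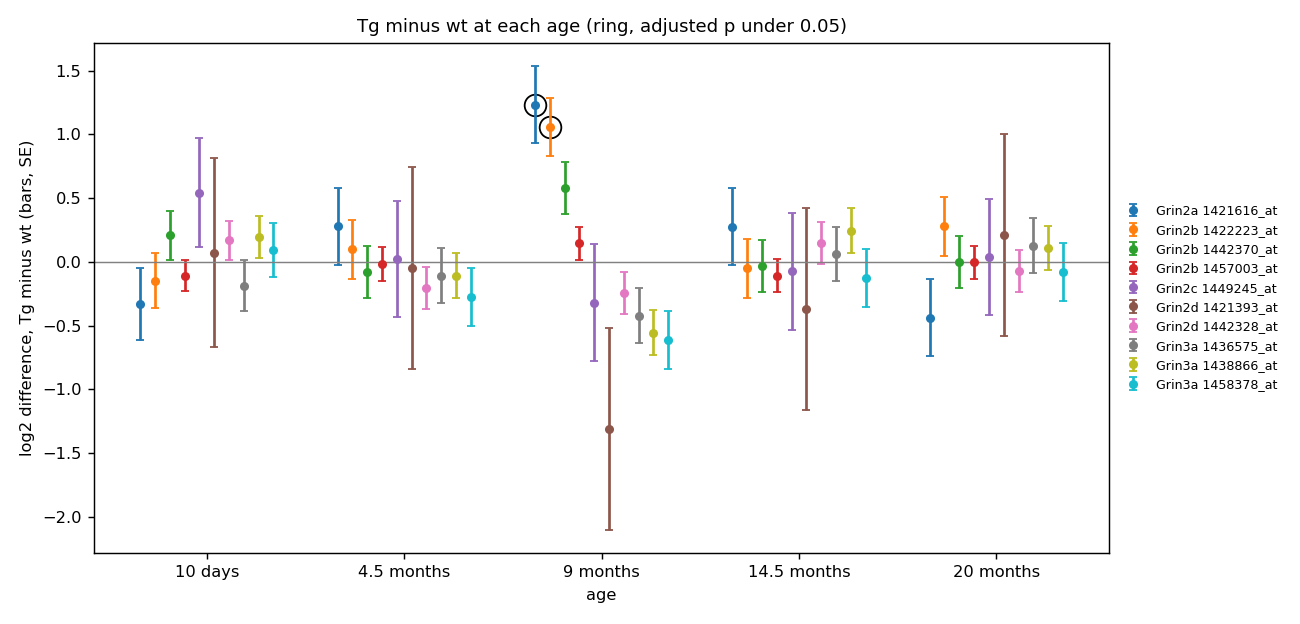
Difference of Tg minus wt in log2 signal (y axis, bars are SE) for the 10 tested probesets at each age (x axis); black rings mark an adjusted p under 0.05. Both rings, for Grin2a and Grin2b 1422223_at, lie at 9 months, and the differences at the other ages lie between -0.44 and 0.54.

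The balance of Grin2a and Grin2b is often used as a sign of synapse maturation. The difference of their log2 signals within an array, set to 0 at the mean of the 7 mice of 10 days (SD 0.26), was 0.73 ± 0.19 at 4.5 months, 0.59 ± 1.04 at 9 months, 0.91 ± 0.24 at 14.5 months and 0.72 ± 0.30 at 20 months (mean ± SD over 6 mice). By genotype it was 0.88 ± 0.10 in Tg and 0.58 ± 0.13 in wt mice at 4.5 months, and 0.51 ± 0.26 in Tg and 0.94 ± 0.15 in wt mice at 20 months. At 9 months single wt mice ran from -1.07 to 1.22. The Grin2b value here is that of 1457003_at, and no test was made of this difference. From 10 days to 4.5 months that probeset changed by 1.02, but 1422223_at by 0.13 and 1442370_at by -0.13, so the balance depends on the probeset chosen.

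Related genes were counted in lists of partners of the receptor, at 1 probeset for each gene. Over all 12844 genes tested the median change was -0.04 for 4.5 months against 10 days and 0.03 for 20 against 4.5 months. Of all genes 31.2% rose and 35.5% fell in the first of these comparisons, and 22.4% rose and 19.9% fell in the other. Among the other glutamate-gated channel subunits, 5 of 10 tested genes rose and 2 fell at 4.5 months against 10 days (median 0.30), and 1 rose and 5 fell at 20 against 4.5 months (median -0.22). The AMPA receptor subunits Gria2 and Gria1 rose by 0.80 ± 0.03 and 0.74 ± 0.05 and the kainate receptor subunit Grik5 by 0.99 ± 0.08 at 4.5 months. At 20 months Grik5 fell by 1.34 ± 0.08 and Gria2 by 0.29 ± 0.03.

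Of 18 scaffold genes tested 12 rose and 4 fell at 4.5 months (median 0.45), and 3 rose and 11 fell at 20 months (median -0.33). Dlgap1 and Dlgap3, which link the receptor complex to Shank proteins, rose by 1.63 ± 0.07 and 1.47 ± 0.08, and Shank3, a master scaffold of the postsynaptic density, by 1.29 ± 0.06. In old mice Shank3 fell by 1.12 ± 0.06 and Dlgap4 by 1.05 ± 0.06.

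Of 14 genes that act on calcium downstream of the receptor, 10 rose and 3 fell at 4.5 months (median 0.67), and 2 rose and 5 fell at 20 months (median -0.08). Rasgrf1, an exchange factor for Ras, rose by 1.99 ± 0.05 and the inositol trisphosphate kinase Itpka by 1.50 ± 0.06, while the nuclear kinase Camk4 fell by 1.72 ± 0.06. At 20 months Itpka fell by 0.65 ± 0.06 and Camk2a, the alpha subunit of the kinase that binds the Grin2b protein, by 0.93 ± 0.10. The kinases and phosphatases of the subunits gave 6 of 14 higher and 4 lower at 4.5 months (median -0.04), and 4 higher and 6 lower at 20 months (median -0.26). Ptk2b, Src and Dapk1 rose by 2.39 ± 0.08, 1.63 ± 0.08 and 1.06 ± 0.05, and at 20 months the Src family kinases Src and Fyn, which phosphorylate Grin2 proteins, fell by 1.45 ± 0.08 and 0.66 ± 0.04.

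Trafficking genes had 6 of 16 higher and 7 lower at 4.5 months (median -0.01), with 4 higher and 7 lower at 20 months (median -0.01). Among them Pacsin1, an endocytic adaptor, and Nsf, a fusion ATPase, rose by 2.04 ± 0.05 and 0.87 ± 0.04, Ap2m1, a clathrin adaptor subunit, fell by 0.68 ± 0.04, and in old mice Apba1 and Pacsin1 fell by 1.28 ± 0.06 and 1.03 ± 0.05. Of the genes that supply the co-agonists glycine and D-serine, 4 of 13 rose and 5 fell at 4.5 months (median -0.14), and 5 rose and 4 fell at 20 months (median 0.08). Srr, the enzyme that makes D-serine, rose by 0.60 ± 0.05, the transporters Slc1a4 and Slc38a5 fell by 1.07 ± 0.08 and 1.58 ± 0.17, and in old mice the serine synthesis enzymes Psph and Psat1 rose by 0.48 ± 0.08 and 0.38 ± 0.07.

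Transcription factors linked to Grin genes gave 4 of 16 higher and 6 lower at 4.5 months (median -0.13), and 5 higher and 5 lower at 20 months (median 0.05). Mef2d rose by 0.86 ± 0.04, and the histone deacetylase Hdac2 and the methyltransferase Ezh2 fell by 0.73 ± 0.05 and 1.96 ± 0.13. At 20 months Sp3, a factor of the GC box, rose by 0.76 ± 0.07 and Mef2d fell by 0.36 ± 0.05. Of the activity-regulated genes 7 of 12 rose and 1 fell at 4.5 months (median 0.71), and 2 rose and 3 fell at 20 months (median -0.07). Egr1, Nr4a1 and Arc rose by 1.53 ± 0.09, 1.66 ± 0.18 and 2.93 ± 0.33, and in old mice Nptx2 fell by 1.12 ± 0.18 and Bdnf rose by 0.34 ± 0.09.

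Between Tg and wt mice of 9 months, 2.99% of genes passed, and these genes of the lists were among them, as named after their values were seen. The postsynaptic scaffold Dlg4 was higher in Tg mice, by 0.72 ± 0.15, as were Camk2b, by 0.32 ± 0.08, the serine hydroxymethyltransferase Shmt1, by 2.21 ± 0.50, and the immediate early gene Egr2, by 2.42 ± 0.49. The kainate receptor subunit Grik3 was lower, by -0.75 ± 0.21, and so was the Cdk5 activator Cdk5r1, by -0.34 ± 0.07.

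Cell type markers also moved between 10 days and 4.5 months. Of the 8 neuron markers named above 6 rose and 2 fell. Their summed level (log2) was 16.57 to 16.63 in Tg and 16.54 to 16.67 in wt mice at 4.5 months. At 10 days it was 15.74 to 15.89 in Tg and 15.72 to 15.82 in wt mice. At 20 months 0 of them rose and 4 fell, with a summed level of 16.19 to 16.27 in Tg and 16.20 to 16.23 in wt mice. Of 10 interneuron markers 5 rose and 3 fell at 4.5 months, and 1 rose and 3 fell at 20 months. All 7 markers of immature neurons and dividing cells fell and 6 of 7 tested oligodendrocyte markers rose at 4.5 months. The part of these shifts in the change of the subunits was not tested.

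The genes whose pattern was most like that of each subunit over the 31 arrays were named by Pearson correlation among 12844 genes, as a description, since all mice of an age share that age. For Grin2a they were Adcy1, a calcium-stimulated adenylyl cyclase, Pim2 and Wipi2, at 0.85, 0.85 and 0.82. For Grin2b (1457003_at) they were Clip3, the neuronal splicing factor Nova2 and Chst2, at 0.95, 0.94 and 0.91. Grin2c was most like Stac2, Zfp395 and Ccdc92, at 0.87, 0.86 and 0.85.

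For Grin2d they were the potassium channel Kcnh3, the presynaptic adhesion gene Nrxn2 and Ankrd13c, at 0.89, 0.88 and 0.87, and for Grin3a the fatty acid binding protein Fabp5, Bex1 and Ly6h, at 0.96, 0.95 and 0.94. Among the subunits themselves, Grin2b correlated with Grin2a at 0.69 and with Grin2d at 0.68. Grin3a correlated with Grin2d at 0.51 and with Grin2c at -0.55.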

How the data were processed

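Hippocampal RNA of 31 mice was hybridized by the study to Affymetrix arrays, and the authors deposited linear signal intensities made with MAS5, whose version and settings are not given in the sources used here. The study's text describes RMA values of the image files, which were not used here. Quantile normalization of log2 values, the filter and the model were computed here in R 4.3.3 with limma 3.58.1 (a mean for each of 10 groups, moderated with trend and robustly, tested on simulated data). Of the mouse probesets 34945 are annotated to 1 gene, 932 to several and 9160 to none. A gene of a list is shown by its probeset of highest mean. From each list the 3 genes of smallest p at 4.5 months against 10 days and the 2 at 20 against 4.5 months are named. The members and lists were chosen with earlier results of these data known. The pairs 14.5 against 4.5 months and 20 months against 10 days were added after the values were seen. Alternatives were no quantile normalization, an offset of 50, other filters (none, the 60th percentile of the mean), moderation without trend, a replicate block, each mouse left out, the compared ages alone, other pairs of ages, the median over a gene's probesets, and an adjusted p of at most 0.01 with a fold of at least 1.3. Promoter sequences are from RefSeq.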

Additional observations from a re-analysis of the deposited data

Results flagged for a closer look

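Among the 11 groups of 4 mice examined for a mouse apart from the others (the wt mice of 10 days, on each probeset), 3 held such a mouse. Chance gives about 1 in 20 for a single group. The 11 groups are the same 4 mice, so their count cannot be set against that rate. Grin2c 1449245_at had a log2 signal of 4.44 in 1 mouse, against 7.15 to 7.69 in the other 3. Grin3a 1436575_at had 9.80 and Grin3a 1458378_at 8.32 in another, the wt mouse 4, against 10.25 to 10.29 and 8.85 to 8.93 in the rest. The causes were not tested.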

How the results depend on the processing

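Of 7386 single values recomputed, 7282 kept their side of the threshold, and these include changes of sign without a call in either fit. The others were 60 that lost a call, 37 that gained one and 7 that changed sign with a call in either fit. All 7 came from another pair of ages. At 9 months against 10 days these were Grin2b 1457003_at (-0.17) and Grin2d 1442328_at (-0.24), and with the mean of 4 later ages Grin2d 1442328_at (-0.094). At 20 against 9 months they were Grin2a (0.24), Grin2b 1442370_at (0.46) and 1457003_at (0.11) and Grin3a 1438866_at (0.071), and 2 members were called in place of 6. At the stricter threshold 4 members in place of 7 were called at 20 against 14.5 months and 0 in place of 2 for Tg against wt at 9 months, where the fit of that age alone also called 0. The compared ages alone called 5 in place of 3 at 14.5 against 4.5 months. With the median over probesets 3 genes in place of 5 were called at 4.5 months against 10 days. Without quantile normalization 0 in place of 1 activity-regulated genes fell, the change of Grin2a minus Grin2b was 1.00 at 4.5, 0.97 at 9 (against 0.59, with wt mice at 0.46 against 0.05) and 1.16 at 14.5 months, and the median of all probesets at 4.5 months against 10 days moved to 0.14, against 0.01.

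Leaving out each mouse in turn, the members called ranged from 7 to 8 at 4.5 months against 10 days, 5 to 7 at 20 against 4.5 months, 6 to 9, 5 to 7 and 5 to 8 for the successive adult steps, and 0 to 4 for Tg against wt at 9 months. They were 0 to 0 for Tg against wt at 10 days, 4.5, 14.5 and 20 months, for the mean of ages and for both interaction contrasts, and 0 to 1 for both F-tests of genotype. For the pairs 14.5 against 4.5 months and 20 months against 10 days they were 3 to 4 and 6 to 7. For age they ranged from 6 to 8 in Tg mice and 9 to 9 in wt mice. Grin3a 1438866_at at 20 against 14.5 months (adjusted p = 0.0484) lost its call without any of 18 mice. The numbers of the mice did not pair them (correlations of -0.11 to 0.05 over 15 pairs, with 2 Tg mice best matched by their own number), and with a replicate block that same call was lost (adjusted p = 0.0608) and no other. No detection calls were used, so whether a dim probeset lay above background is unknown.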
